A study of Mus musculus with 6 samples.

Results

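The glutathione S-transferases described here are 10 mouse genes, Gsta2, Gsta3, Gsta4, Gstm1, Gstm2, Gstm5, Gstp1, Gsto1, Gstt1 and Gstt2, measured in whole lung. They were taken as every probe set whose only gene symbol in the array annotation was one of these names, which gave 15 of the 12488 probe sets on each array and 10 of 8251 genes. The study used 6 Affymetrix arrays, 1 each for smoked and control lung in each of C57, DBA and ICR mice, of which ICR is an outbred stock. Smoked mice received the smoke of 3 cigarettes a day on 5 days a week for 4 weeks. The series asks how strains differ in their lung response to smoke. Control lungs are labelled normal lung. The labels number every sample as mouse 1 of its group and give no age, sex or pooling, so p-values measure only the spread between these arrays.

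Glutathione S-transferases join the tripeptide glutathione to electrophilic compounds, which makes them more soluble and ready for export from the cell. The cytosolic enzymes fall into classes named alpha, mu, pi, omega and theta, which the letters a, m, p, o and t of the gene names mark. In the lung they handle epoxides and aldehydes of inhaled smoke and products of lipid peroxidation, and many are targets of NRF2, the transcription factor of the antioxidant response. The alpha and mu enzymes are also abundant in liver. Gstm1, Gstm2 and Gstm5 lie on chromosome 3, Gsta2 and Gsta4 on chromosome 9, Gsta3 on chromosome 1, Gstt1 and Gstt2 on chromosome 10, and Gstp1 and Gsto1 on chromosome 19.

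The ICR smoked array was the dimmest, with a median deposited intensity of 25.9 against 52.2 for ICR control, and 60.1 to 84.8 on the other arrays. Its beta-actin control, a measure of RNA integrity, had a 3' to 5' ratio of 4.75, against 1.46 to 2.75 elsewhere. Comparisons therefore used log2 of the intensity plus 8.05 after quantile normalization between arrays, called the normalized level below. Lung markers were high throughout: the surfactant gene Sftpc read 7184 to 10579 and the club cell gene Scgb1a1 7572 to 10324. Cyp1a1, the P450 that smoke induces through the aryl hydrocarbon receptor, was called higher in the smoked lungs in 3 of 3 pairs (log2 4.27, limma adjusted p = 0.000796). So were Cyp1b1, a related P450 (log2 2.26 in C57, 2.33 in DBA and 1.41 in ICR, limma adjusted p = 0.0454), and Aldh3a1, an aldehyde dehydrogenase (log2 1.87, limma adjusted p = 0.0454).

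The first comparison asked whether smoke changed these enzymes in all 3 strains, with strain as a block. No glutathione S-transferase was called: 0 of 14 tested probe sets had a limma adjusted p below 0.05, against 0.0403% of all 7453 tested, and each had an adjusted p of 1. The probe set of Gstm5 that was not tested (161722_f_at) was near the array floor, at 2.85 to 14.5 on all 6 arrays. At an unadjusted p below 0.05 there were 2 of 14, Gsta2 and Gstp1, against 1.64% of all probe sets. These were also the 2 that had higher levels in the smoked lung of all 3 strains, 14.3% of 14 against a background of 9.86%, while 0 were lower in all 3 against 7.77%.

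Gsta2, an alpha class enzyme that also reduces lipid hydroperoxides, had the largest mean difference of the family. Its deposited intensity was 253 in smoked and 244 in control C57 lung, 308 in smoked and 124 in control DBA lung, and 79.7 in smoked and 77.0 in control ICR lung. The normalized differences, smoked minus control, were 0.08 in C57, 1.01 in DBA and 0.99 in ICR. The C57 lungs were thus nearly level, and the control lungs of DBA and ICR (normalized 6.80 and 6.50) stood below the other arrays, which lay between 7.50 and 7.83. The mean difference was log2 0.69 (SE 0.24, 95% interval 0.15 to 1.24), or 1.62-fold, which limma did not call. The ICR difference rested on the scaling: it was 0.05 without scaling, where the median of all probe sets in that pair was -0.87, and 0.87 with scaling to a common median.

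Gstp1, the pi class enzyme that conjugates acrolein and diol epoxides of polycyclic hydrocarbons, had a smaller but more even difference. It read 2572 in smoked and 2092 in control C57 lung, 3368 in smoked and 1922 in control DBA lung, and 933 in smoked and 1468 in control ICR lung. After normalization the differences were 0.28 in C57, 0.60 in DBA and 0.23 in ICR, with a standard deviation of 0.20 over the 3 strains. The ICR difference turned to -0.65 without scaling, where the median of all probe sets in that pair was -0.87. The mean was log2 0.37 (SE 0.15, 95% interval 0.03 to 0.72), or 1.29-fold, also not called. Sequence upstream of Gsta2 and Gstp1 is shown because they were the members higher in every strain, and that of Gsto1 because it differed between strains (below). It comes from RefSeq (GRCm38.p6, 250 bases before the start of an annotated transcript, read 5′ to 3′ in the direction of the gene), for Gsta2 at chr9:78347146-78347395 on the minus strand, for Gstp1 at chr19:4037913-4038162 on the minus strand and for Gsto1 at chr19:47854723-47854972 on the plus strand. The annotated Gsta2 gene reaches base 78347192, so the last part of its window lies within the gene. Capitals mark matches on either strand to TGANNNNGC, the core of the antioxidant response element that NRF2 binds, to TGANTCA, the AP-1 element, and to GCGTG, the core of the site for the aryl hydrocarbon receptor.
Gstp1: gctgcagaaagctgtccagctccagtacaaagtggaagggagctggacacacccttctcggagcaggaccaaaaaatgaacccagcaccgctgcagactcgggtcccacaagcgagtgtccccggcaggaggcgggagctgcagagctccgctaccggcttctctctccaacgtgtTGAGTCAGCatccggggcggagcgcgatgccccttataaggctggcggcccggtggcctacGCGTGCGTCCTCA
Gsta2: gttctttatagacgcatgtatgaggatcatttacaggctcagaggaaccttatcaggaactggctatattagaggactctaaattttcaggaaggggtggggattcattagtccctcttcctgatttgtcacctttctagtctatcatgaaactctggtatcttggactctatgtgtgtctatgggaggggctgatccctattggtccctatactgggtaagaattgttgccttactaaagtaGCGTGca
Gsto1: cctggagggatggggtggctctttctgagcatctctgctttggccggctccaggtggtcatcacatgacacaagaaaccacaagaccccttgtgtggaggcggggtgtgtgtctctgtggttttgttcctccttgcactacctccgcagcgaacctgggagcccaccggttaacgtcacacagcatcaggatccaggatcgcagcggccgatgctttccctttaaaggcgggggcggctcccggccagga

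In Gstp1 the element TGAGTCAGC, at bases -74 to -66 from the start, matched the antioxidant and AP-1 motifs at overlapping positions. A further antioxidant core match on the opposite strand (GCGTCCTCA, -9 to -1) overlapped the GCGTG match at -13 to -9. The Gsta2 window held only GCGTG, at -7 to -3 and so within the annotated gene, and the Gsto1 window held none of the 3 motifs. A RefSeq window was matched for 8 of the 10 members: 4 held an antioxidant core (Gsta3, Gstm5, Gstp1 and Gstt1), 2 an AP-1 element (Gstm5 and Gstp1) and 4 a GCGTG (Gsta2, Gstm1, Gstm5 and Gstp1). These motifs are short and common: of all 32851 windows of this length, 35.2% held the antioxidant core, 6.75% the AP-1 element and 28.2% GCGTG. The Gstt1 window lay wholly within the annotated gene, and a Gstm1 window overlapped its gene. The matches describe letters in the reference strain and are not evidence of binding.

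**Figure D1:**
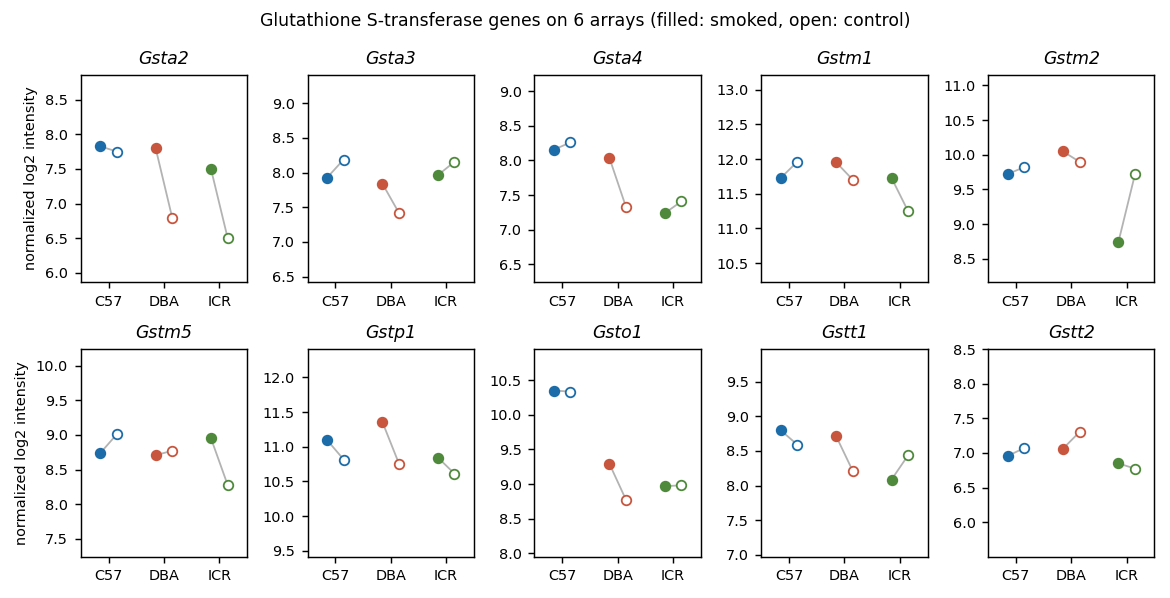
Normalized log2 intensity of the 10 genes (1 probe set each, the one with the highest mean) on the 6 arrays, with smoked lung as filled and control lung as open circles. Gsta2 and Gstp1 are higher in smoked lung of every strain, and Gsto1 is separated by strain, with the 4 DBA and ICR arrays below both C57 arrays.

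The other alpha enzymes had higher levels in smoked lung of DBA alone, and no difference between strains in their response was called. Gsta4, which conjugates hydroxynonenal, an aldehyde of lipid peroxidation, read 365 in smoked and 180.5 in control DBA lung, 319 in smoked and 363 in control C57 lung, and 66.2 in smoked and 149.6 in control ICR lung. Its normalized differences were 0.71 in DBA, -0.11 in C57 and -0.17 in ICR. Gsta3, which in mice detoxifies the epoxide of aflatoxin, had the same order of signs, at 0.42 in DBA, -0.26 in C57 and -0.19 in ICR. Means over strains were 0.14 for Gsta4 (SE 0.23) and -0.01 for Gsta3 (SE 0.21).

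The mu class genes gave no single direction, and probe sets of 1 gene disagreed. For Gstm1, a major mu enzyme acting on epoxides, the brighter probe set (93543_f_at) read 4100.4 in smoked and 4353 in control C57 lung, 5066 in smoked and 3975 in control DBA lung, and 1902 in smoked and 2194 in control ICR lung. Its normalized differences were -0.24 in C57, 0.25 in DBA and 0.48 in ICR. The dimmer Gstm1 probe set (161633_r_at) had -0.16, -0.50 and 0.26 in the same strains, so both agreed in sign in C57 and ICR but not in DBA. The letter f in a probe set name marks probes that can recognise several members of a gene family, and r marks a set that broke a design rule, so single mu genes are uncertain here.

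Gstm2, a close relative of Gstm1, showed the widest disagreement. Its brighter probe set (93009_at) read 960.0 in smoked and 1096 in control C57 lung, 1425 in smoked and 1057 in control DBA lung, and 200.3 in smoked and 779 in control ICR lung. The ICR smoked array was far below the other 5. Normalized differences were -0.10, 0.15 and -0.98 in C57, DBA and ICR, while the second probe set (161357_r_at) had -1.03, -0.12 and 0.83. In ICR the normalized values thus had opposite signs. Without scaling both probe sets were lower in smoked ICR lung, at -1.92 for 93009_at and -0.11 for 161357_r_at. The median of all probe sets in that pair was then -0.87, with 93009_at below it and 161357_r_at above it, so the disagreement remained. Whether the strain's sequence or the 3' signal bias of the ICR smoked array touched either probe set was not tested.

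Gstm5, a mu enzyme known from brain and testis, was measured by 4 probe sets. Its brightest (100630_f_at) had differences of -0.27 for C57, -0.06 for DBA and 0.67 for ICR. The probe sets 100629_at and 100631_r_at had 0.28 and 0.27 in C57, -0.19 and -0.002 in DBA, and 0.23 and 0.92 in ICR. All 3 tested sets were thus higher in smoked ICR and none was higher in smoked DBA lung. Without scaling all 3 were higher in DBA and 2 of them were lower in ICR. The medians of all probe sets were then 0.31 in DBA and -0.87 in ICR. Mean differences ran from 0.11 to 0.39 and none was called.

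Among the remaining classes, Gsto1 and Gstt1 had higher normalized levels in smoked DBA lung and Gstt2 did not. Gstt1, a theta enzyme that acts on small halogenated compounds, read 508 in smoked and 459.7 in control C57 lung, 580.1 in smoked and 332 in control DBA lung, and 122 in smoked and 313.5 in control ICR lung. Its normalized differences were 0.21 in C57, 0.50 in DBA and -0.35 in ICR. Gstt2, a theta enzyme of aryl sulfate conversion, had -0.12 in C57, -0.24 in DBA and 0.08 in ICR, with a standard deviation of 0.16.

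**Figure D2:**
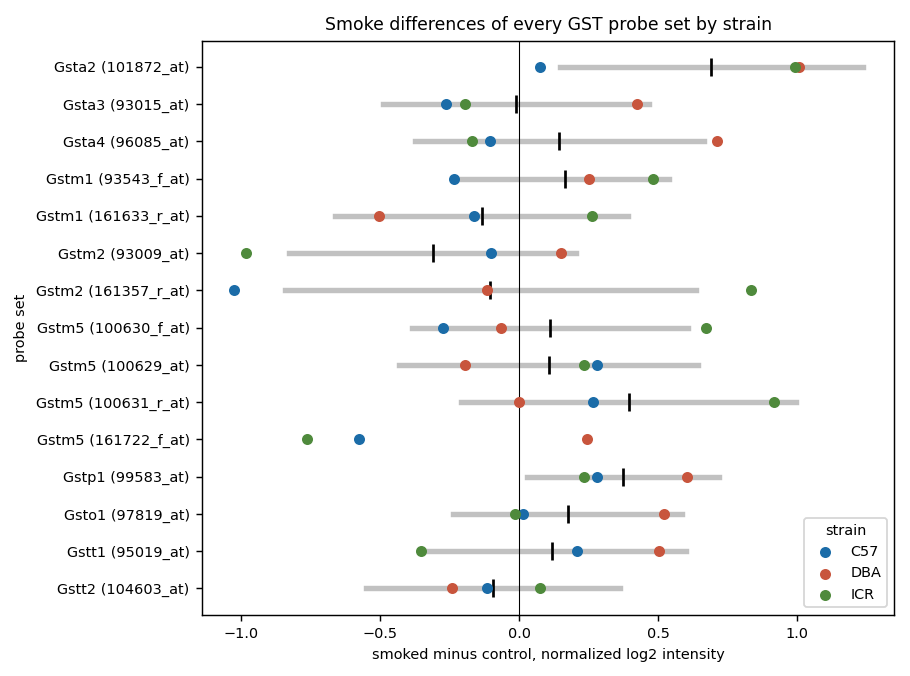
Smoked minus control difference in normalized log2 intensity for all 15 probe sets, with 1 point per strain, the mean as a black tick and its 95% interval as a grey bar (none for the probe set left out of the test). The points of 1 gene's probe sets scatter on both sides of 0 for Gstm1, Gstm2 and Gstm5, and only the intervals of Gsta2 and Gstp1 lie above 0 before adjustment.

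Within single strains there were no replicates and no test. With 1 probe set a gene, smoked DBA lung had the higher normalized level for 8 of 10 genes, against 53.8% of all probe sets tested, and the higher deposited intensity for 10 of 10, where 84.5% of all probe sets tested were also higher as deposited. In C57, 4 of 10 were higher (background 48.2%), and also 4 of 10 as deposited (43.8%). In ICR, 5 of 10 were higher by normalized level (background 51%) and 1 of 10 as deposited (4.09%). The median difference of the 10 genes was 0.46 in DBA, against 0.03 over all probe sets tested, with 7 of the 10 above the upper quartile of all probe sets in that pair (0.23). In C57 the median was -0.10 against -0.01, with 2 above the upper quartile, and in ICR 0.03 against 0.01, with 3 above. The choice of probe set mattered: over all 14 tested probe sets the medians were -0.10 for C57, 0.20 for DBA and 0.23 for ICR, so DBA did not stand above ICR when the several mu class probe sets were all counted. With 1 probe set a gene, the DBA median was 0.48 with scaling to a common median and 0.75 without scaling, against 0.04 and 0.31 over all probe sets. The ICR median turned to -0.05 and -0.88 under the same settings, against -0.04 and -0.87 over all probe sets.

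At least 2-fold differences were rare in the family. Gsta2 in DBA (2.01-fold) was the only 1 of 14 probe sets that was 2-fold higher in DBA, against 0.684% of all tested, and 0 were 2-fold lower against 2.36%. In C57 there was 1 lower, Gstm2 161357_r_at, at 0.491-fold (background 0.443%), and 0 higher (0.765%). In ICR there were 0 higher (2.79%) and 0 lower (3.69%), with Gsta2 at 1.99-fold and Gstm2 93009_at at 0.507-fold just inside that limit. With 14 probe sets, a single one is already 7.14%, so these counts cannot be set against such backgrounds.

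Markers of several cell types moved with the DBA pair. All 8 of 8 measured liver markers were higher in smoked DBA lung, with a summed intensity of 5797 against 1068 in control DBA lung, and Alb read 1455 against 20.6. In C57 the sum was 306 in smoked and 591 in control lung, and in ICR 242 in smoked and 552 in control lung. Neutrophil markers ran the other way: 0 of 7 were higher in smoked DBA lung, with a sum of 1241 against 16871 in control DBA lung. Club cell markers, which mark airway cells rich in detoxifying enzymes, were higher for 5 of 5 genes in the DBA pair, with a median of 0.29 and a sum of 29702 in smoked against 24802 in control DBA lung. Alveolar type I markers were likewise higher for 5 of 5 genes, with a sum of 18722 in smoked against 14677 in control DBA lung. Of all probe sets tested, 53.8% were higher in that pair. The sums are of deposited intensities, and the DBA smoked array was brighter, with a median of 84.8 against 68.7 for DBA control. Alveolar type II markers were higher for 0 of 4 genes (sums 18079 in smoked and 18384 in control), ciliated for 2 of 5 and endothelial for 3 of 5. Lower sums in smoked DBA lung were seen for alveolar macrophage (1133 against 3085, 1 of 5 genes higher), B and plasma cell (494 against 950.5, 0 of 4 higher), skeletal muscle (419 against 852, 0 of 8 higher) and stratified epithelium markers (194 against 454, 2 of 6 higher). On both DBA arrays 1 alveolar macrophage and 1 stratified epithelium marker read below the added constant of 8.05. In whole tissue more cells of a type and more RNA per cell cannot be told apart, and the part of these cell types in the DBA values was not tested.

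**Figure D3:**
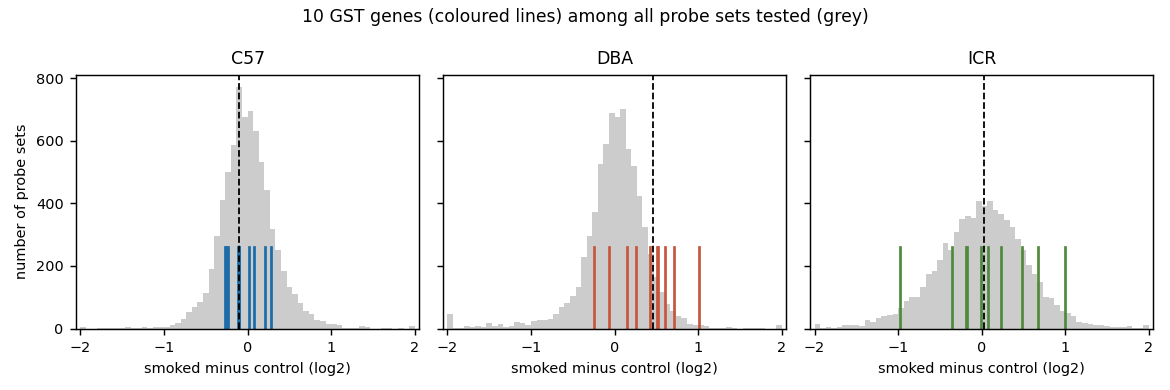
Distribution of the smoked minus control difference (log2) over the 7453 probe sets tested in each strain (grey, values beyond 2 drawn in the end bins), with the 10 genes as coloured lines and their median dashed. The dashed line stands at 0.46 in DBA and near 0 in C57 and ICR.

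Whether 1 strain's response differed from that of the others was tested by adding a smoke term of its own for each strain in turn. No member was called in any of the 3 tests: 0 of 14 in C57 (background 0.134%), 0 of 14 in DBA (0.711%) and 0 of 14 in ICR (0%). At an unadjusted p below 0.05 the counts were 1, 0 and 3 of 14, against 3.01%, 3.94% and 14.3% of all probe sets. For Gsta2 the response differed by -0.92 in C57 (SE 0.56), 0.47 in DBA (SE 0.54) and 0.45 in ICR (SE 0.47, limma adjusted p = 0.662), the last of which turned to -0.61 without scaling. The largest ICR values belonged to the Gstm2 probe sets, at -1.01 for 93009_at (SE 0.27, limma adjusted p = 0.302) and 1.40 for 161357_r_at (SE 0.48, limma adjusted p = 0.331). Gstm5 100630_f_at had 0.84 (SE 0.28, limma adjusted p = 0.331) and turned to -0.20 without scaling. In C57, Gstm2 161357_r_at had -1.38 (SE 0.62). The setting without scaling shifted the ICR pair as a whole. Medians of all probe sets were then -0.05 in C57, 0.31 in DBA and -0.87 in ICR.

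The next comparison asked which members differed between strains whatever the exposure, from 2 arrays a strain. Gsto1 was lower in DBA and ICR than in C57 lung, and no other member was called. Gsto1 is the omega class enzyme, which carries a cysteine in its active site and reduces dehydroascorbate and methylated arsenic compounds. It read 856 in smoked and 488 in control DBA lung, 239 in smoked and 459.6 in control ICR lung, and 1544 in smoked and 1543 in control C57 lung. Normalized levels were 9.30 and 8.78 in smoked and control DBA lung and 8.97 and 8.98 in ICR, against 10.35 and 10.33 in C57, so the 4 DBA and ICR arrays lay below both C57 arrays. The normalized levels of DBA and ICR overlapped.

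Gsto1 differed by log2 -1.31 between DBA and C57 (SE 0.22, limma adjusted p = 0.0201), a 2.47-fold lower level in DBA. The difference between ICR and C57 was -1.37 (SE 0.22, limma adjusted p = 0.0185), a 2.58-fold lower level in ICR. Between ICR and DBA it was -0.06 (95% interval -0.57 to 0.45), and -0.94 without scaling, where the median of all probe sets was -0.89. Thus 1 of 14 probe sets was called between DBA and C57, where 1.73% of all were called and 0.859% were lower. Between ICR and C57 it was also 1 of 14, where 2.29% were called and 1.37% were lower, and between ICR and DBA 0 of 14 (1.17%). The first 2 comparisons share the C57 arrays and are not independent of each other. The DBA call was lost without the C57 control array (adjusted p = 0.137) or the DBA control array (adjusted p = 0.145), and the ICR call without the C57 control (adjusted p = 0.104), ICR smoked (adjusted p = 0.0653) or ICR control array (adjusted p = 0.120). Both were also lost without the filter on low signal (adjusted p = 0.0616 and 0.0647), and the DBA call without scaling (0.686) or the mean trend (0.0559). Over all settings the DBA value lay between -1.57 and -1.05, and that of ICR between -2.19 and -1.23. Sequence differences between strains under the probes were not tested.

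Skeletal muscle and stratified epithelium markers separated the same arrays, while liver markers did not. Skeletal muscle markers had a summed intensity of 419 and 852 in smoked and control DBA lung and 107 and 178 in ICR, against 4037 and 5744 in C57. Of the 6 tested, 5 were called lower in DBA than in C57 and 5 lower in ICR than in C57. Over all probe sets tested, 0.859% were called lower in DBA and 1.37% lower in ICR, and 1.73% and 2.29% in either direction. Stratified epithelium markers summed to 194 and 454 in smoked and control DBA lung and 79.1 and 88.6 in ICR, against 1615 and 821 in C57. Of the 3 tested, 2 were called lower in ICR. Liver markers summed to 5797 and 1068 in smoked and control DBA lung and 242 and 552 in ICR, against 306 and 591 in C57. Of the 5 liver markers tested, 2 were called higher in DBA than in C57, and 0 were called in ICR against C57. Of the lung markers, 2 of 3 ciliated, 1 of 5 club and 1 of 3 alveolar type II genes were also called lower in ICR than in C57, while 1 of 5 alveolar type I genes was called higher in both DBA and ICR. Some markers read below the added constant of 8.05 on both arrays of a strain. In ICR these were 1 skeletal muscle, 2 stratified epithelium and 2 liver genes. In DBA it was 1 stratified epithelium gene, and in C57 1 alveolar type II and 1 liver gene. Of the genes called lower in ICR, Myh1 read 5.01 and 2.26 in smoked and control ICR lung, and Mt4 2.44 and 4.94. The part of these markers in the Gsto1 difference was not tested.

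The strain difference of Gsto1 was larger than its difference with smoke. Its smoked minus control difference was 0.02 for C57, 0.52 for DBA and -0.01 for ICR, with a mean of 0.17 (SE 0.18). In every strain this was smaller than the distance of DBA and ICR from C57.

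Other members had strain differences that did not pass. In ICR against C57, Gstm5 100631_r_at differed by -1.12 (SE 0.33, limma adjusted p = 0.120), Gsta4 by -0.88 (SE 0.28, limma adjusted p = 0.145) and Gsta2 by -0.79 (SE 0.29, limma adjusted p = 0.206). Gstm5 100631_r_at read 18.7 and 15.9 in smoked and control ICR lung against 84.3 and 66.6 in C57, but the other tested Gstm5 probe sets differed by 0.40 and -0.26. That probe set would be called without the DBA smoked array (adjusted p = 0.0488) or the DBA control array (adjusted p = 0.0490), while it was -0.72 without the ICR control array (adjusted p = 0.340) and -1.51 without the ICR smoked array (adjusted p = 0.0651). In ICR against DBA, Gstm2 93009_at differed by -0.74 (SE 0.28, limma adjusted p = 0.252) and Gstm5 100631_r_at by -0.86 (SE 0.33, limma adjusted p = 0.256). Single arrays moved both: leaving out ICR smoked gave -0.24 for Gstm2 and -1.25 for Gstm5, and leaving out ICR control gave -1.25 for Gstm2 and -0.47 for Gstm5. At an unadjusted p below 0.05 there were 1, 4 and 2 of 14 for the DBA to C57, ICR to C57 and ICR to DBA pairs, where the backgrounds were 11.5%, 18% and 15.6%. Gstp1 was not called between strains, at 0.10 in DBA against C57 (95% interval -0.33 to 0.52) and -0.23 in ICR against C57 (95% interval -0.65 to 0.20).

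**Figure D4:**
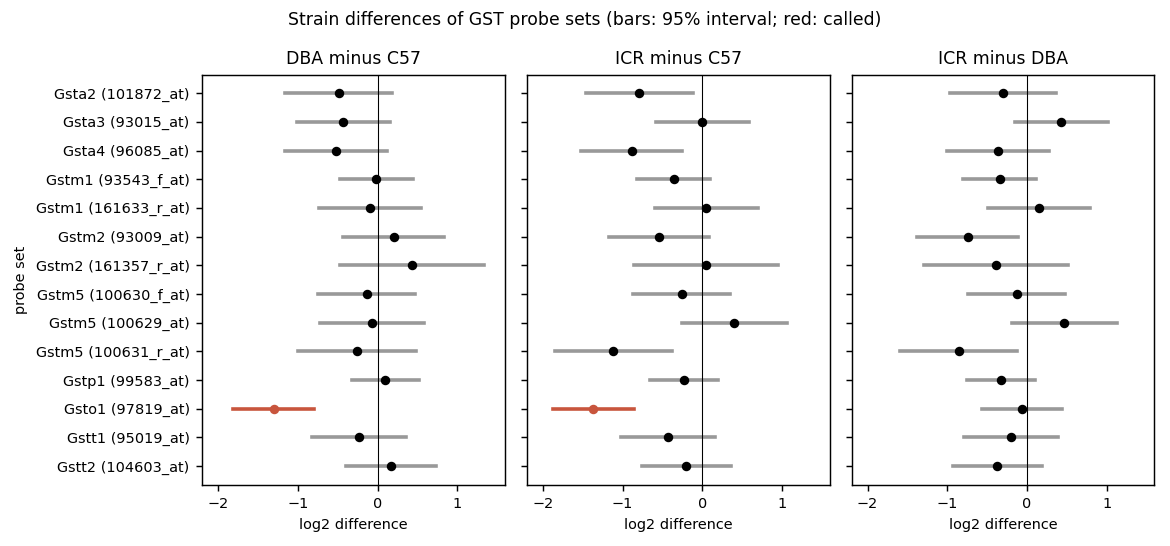
Strain differences in normalized log2 intensity for the 14 tested probe sets, with 95% intervals as bars and called values in red. Gsto1 is at -1.31 in DBA and -1.37 in ICR relative to C57, and near 0 between ICR and DBA.

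Other genes of glutathione metabolism were described from lists, with 1 probe set a gene. Of 19 further transferase genes and relatives 10 were measured and 8 tested, with 0 called higher and 0 lower for smoke. Their median difference was 0.34 in DBA, against 0.06 in C57 and -0.06 in ICR. Mgst1, a microsomal transferase of the endoplasmic reticulum and outer mitochondrial membrane, had 0.30 in C57, 0.92 in DBA and -0.37 in ICR. Ltc4s, the leukotriene C4 synthase, had 0.96 in C57, -0.21 in DBA and -0.03 in ICR. Mgst2 had a mean of 0.24, and Gstm6, which was not tested, one of 0.49.

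Genes that make and recycle glutathione (11 of 15 measured, 8 tested) had 0 called higher and 0 lower. Of the 8 tested, 3 were higher in all 3 strains and 0 lower, against 9.86% and 7.77% of all probe sets. Medians over the genes measured were 0.003 in DBA, against 0.24 in C57 and 0.14 in ICR. Gsr, the reductase that restores glutathione from its disulfide, had 0.57 in DBA, 0.62 in ICR and 0.24 in C57, and Gclm, the modifier subunit of the rate-limiting ligase, had 0.49, 0.14 and 0.65 in the same order. Gss, the glutathione synthetase, had 0.15 in DBA, 0.42 in ICR and 0.07 in C57. Ggct, which cleaves gamma-glutamyl dipeptides and was not tested, had a mean of -0.46.

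Transporters that export glutathione conjugates (4 of 6 measured, 3 tested) had 0 called for smoke. Abcc3, a multidrug resistance protein of the basolateral membrane, had 0.24 in C57, 0.73 in DBA and 0.62 in ICR (mean 0.53, SE 0.18). It was lower in ICR than in C57 lung (log2 -1.08, limma adjusted p = 0.0455), with deposited readings of 186 and 235 in smoked and control ICR lung against 849 and 752 in C57. Abcc5 had a mean of 0.26 and Abcc1 one of 0.06.

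Regulators of NRF2 (9 of 9 measured, 7 tested) and other phase II enzymes (16 of 20 measured, 13 tested) also had 0 called for smoke. The regulators' medians were 0.005 in C57, 0.05 in DBA and 0.01 in ICR. Mafg, a small Maf partner of NRF2, had a mean of 0.33, and Keap1, its inhibitor, which was not tested, one of -0.28. Bach1, a repressor at the same elements, had a mean of -0.19 and Nfe2l1, a relative of NRF2, one of 0.16. Medians of the phase II enzymes were 0.14, 0.34 and 0.30 in C57, DBA and ICR. Of the 13 tested, 6 were higher in all 3 strains and 2 lower, against 9.86% and 7.77% of all probe sets. The largest mean differences, each higher in 3 of 3 strains by normalized level, were in 4 genes. Ces1g, a carboxylesterase, had 1.31 (SE 0.37) and Nqo1, a quinone reductase, 1.24 (SE 0.30). Srxn1, which restores peroxiredoxins, had 0.71 (SE 0.23), and Akr1b8, an aldo-keto reductase, 0.68 (SE 0.18).

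**Figure D5:**
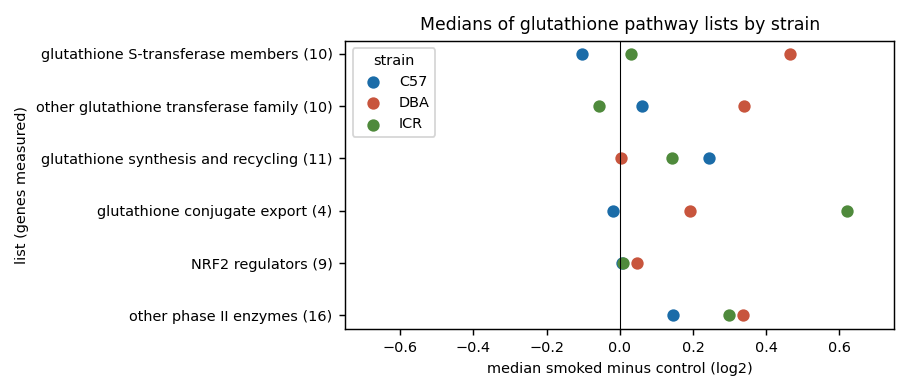
Median smoked minus control difference (log2, 1 point per strain) of the 10 transferase genes and 5 other glutathione and phase II lists, with the number of genes measured in brackets. The DBA point is the highest of the 3 for the transferases at 0.46, their relatives at 0.34, other phase II enzymes at 0.34 and NRF2 regulators at 0.05, and not for synthesis and recycling at 0.003 or conjugate export at 0.19.

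Finally, genes were ranked by the Pearson correlation of their normalized levels with Gsta2 and Gstm1 over the 6 arrays, among 5734 genes. The nearest to Gsta2 were Fancc (0.993), Psmg4 (0.977), Actg2 (0.972), Strbp (0.971) and Gsr (0.970). The nearest to Gstm1 were Itpkb (0.994), Rpa1 (0.986), Tagln (0.983), Slc6a9 (0.981) and Sprr2e (0.976). With 6 arrays that share strain, exposure and normalization, such values are a description only, and none of the 10 named genes is a glutathione S-transferase.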

How the data were processed

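RNA of whole lung was labelled with biotin and hybridised to Affymetrix arrays, per the labels' protocols. The values deposited by the authors are probe set intensity on a linear scale (0.0305 to 10579). The sources used here do not give how they were summarised or scaled. On the log2 scale the medians of the arrays lay up to 1.45 apart. From these intensities, each value had 8.05 (the 20th percentile) added, was taken to log2 and was quantile normalized. Leaving aside 66 controls, 7453 probe sets whose mean exceeded the 40th percentile entered the tests. A single gene symbol was annotated for 10855, several for 396 and no symbol for 1237. By gene identifier, 10839 matched RefSeq. limma 3.58.1 in R 4.3.3 (lmFit, eBayes with mean trend) was fitted to all 6 arrays with strain as a block (2 residual degrees of freedom, 1 with a strain-specific response), 2-sided, with Benjamini-Hochberg adjustment over all probe sets kept. Calls were made at an adjusted p below 0.05. The response test assumes that a single pair varies like the others. Fits were also run on simulated data, and no reading above rests on the outcome. Every member gene is named. From the pathway lists the genes called for smoke or strain and up to 4 with the largest smoke differences are named, along with the 5 genes most like Gsta2 and Gstm1. The markers named were chosen after their values were seen. The members and lists were chosen with earlier results of these data known. Alternatives were other pseudocounts, filters, scalings, variance priors and fold thresholds, no strain block, and pairs or arrays left out. The number of arrays limits precision. Plots used matplotlib 3.10.9 in Python 3.11.15.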

Additional observations from a re-analysis of the deposited data

How the results depend on the processing

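For smoke, 0 members were called under each of the 12 alternatives, including those without 1 strain pair. The share of all probe sets called under them ran from 0% to 0.148%. It was 0% without the strain block and without the ICR pair. For the strain comparisons, fits with a single array left out leave a strain with 1 array, and their counts are not compared here. For DBA against C57 the count of 1 became 0 without the filter on low signal, without scaling or without the mean trend. Of all probe sets, 0.531%, 1.14% and 1.49% were called in these settings, against 1.73% in the main one. For ICR against C57 the count of 1 became 0 without the filter, where 0.354% of all probe sets were called, against 2.29% in the main setting. For the ICR response it became 4 without scaling (Gstm2 93009_at, Gstt1, Gsta4 and Gstp1, each lower) of 14, where 24% of all probe sets were called. Members at least 2-fold different, with 1 in C57, 1 in DBA and 0 in ICR, became 3 in DBA and 5 in ICR at 1.5-fold and 0 in C57 and DBA at 3-fold or with a pseudocount of 32. In ICR they became 2 with a pseudocount of 1, 4 without scaling and 1 with a common median, and in DBA 0 with a common median. Without scaling the median of all probe sets tested in the ICR pair was itself -0.87, close to the 2-fold limit. The share of all probe sets was not counted under these settings, so the counts say nothing particular about the members. Of 331 refitted values of the members reported, 302 kept direction and side of the threshold, 9 lost and 3 gained a call, and 17 changed sign. Without scaling, the median smoke difference over all probe sets tested was itself -0.21. In that setting the ICR responses of Gsta2 (-0.61) and Gstm5 100630_f_at (-0.20) changed sign. Smoke differences that did so were Gstm5 100629_at (-0.10) and 100630_f_at (-0.12), Gstt1 (-0.12), Gsta4 (-0.0945) and Gsto1 (-0.0389), all above that median. With a pair left out they ran from -0.23 to 0.12 for Gsta3, -0.14 to 0.30 for Gsta4, -0.33 to 0.0495 for Gstm1 161633_r_at, -0.54 to 0.0247 for Gstm2 93009_at, -0.57 to 0.36 for Gstm2 161357_r_at, -0.17 to 0.30 for Gstm5 100630_f_at and -0.0716 to 0.36 for Gstt1. Gsto1 in ICR against DBA ran from -0.32 to 0.20 with arrays left out and was -0.94 without scaling. Without scaling Gsto1 was at -1.25 in DBA against C57 (adjusted p = 0.686). The cause of these changes was not tested. The smoke test pairs the arrays of a strain. Without that pairing 0 of all 7453 probe sets were called, so the count of 0 members in that setting says nothing about the members. Mouse numbers could not serve as a further block, since every sample has the same one. The test of 1 strain's response has 1 residual degree of freedom, and 1 array a group leaves a strain's own spread unknown.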
